A study of Mus musculus with 18 samples.

Results

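Acute-phase genes of the liver, 10 in all, were examined in mice lacking Gpr180: Lcn2, the serum amyloid A genes Saa1, Saa2 and Saa3, the orosomucoid genes Orm1, Orm2 and Orm3, and Hp, Itih4 and Serpina3n. They were chosen by symbol, and all 10 of 10 were found, with 1 entry each and no failed estimate, among the 23352 gene symbols of the tables. All 10 were among the 10835 genes tested, those with a mean of at least 1 FPKM (fragments per kilobase of transcript, scaled to the mapped reads of the library). The question was whether Lcn2 moved with the other members between wild-type and Gpr180KO livers and between individual mice.

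The livers came from 18 male mice, 20 weeks old, all fed a high-fat diet (HFD), with 1 poly(A) RNA library per mouse. The 9 wild-type (WT) and 9 Gpr180KO mice were both derived from matings of heterozygous mice made by CRISPR/Cas9 in C57BL/6J eggs and then backcrossed. In Gpr180KO mice an exon of Gpr180, a membrane protein gene, is deleted in every tissue, which shifts the reading frame and leaves a truncated mRNA, so that the liver is not the only organ that lacks it. The mice were kept on HFD from young adulthood, and normal-diet libraries were not analysed here.

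The acute-phase response is the change in plasma proteins that the liver makes during infection, injury or chronic inflammation. Interleukin-6, acting through STAT3, and interleukin-1 and tumour necrosis factor, acting through NF-kB and C/EBP proteins, raise the transcription of these genes in hepatocytes. In obesity and fatty liver several of them are raised at a low grade. Lcn2 encodes lipocalin-2, which binds bacterial iron carriers and is made by hepatocytes and also by neutrophils. The serum amyloid A proteins are carried on high-density lipoprotein, and the orosomucoids bind drugs and lipids in plasma. Hp encodes haptoglobin, which binds free haemoglobin, Itih4 a heavy chain of the inter-alpha-trypsin inhibitor family, and Serpina3n a serine protease inhibitor.

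In the RefSeq annotation of GRCm38.p6, the genome build of the tables, Lcn2 lies at chr2:32384637-32387739 on the minus strand. The serum amyloid A genes form a cluster, with Saa3 at chr7:46711998-46719615 and Saa1 at chr7:46740497-46743181 on the minus strand and Saa2 at chr7:46751833-46754313 on the plus strand. Orm1 (chr4:63344556-63348163), Orm3 (chr4:63356069-63359506) and Orm2 (chr4:63362449-63365877) stand side by side on the plus strand. Hp lies at chr8:109575128-109579172 on the minus strand, Itih4 at chr14:30886476-30901986 and Serpina3n at chr12:104406646-104414334, both on the plus strand. Reads of 75 bases cannot always separate the related genes. Of the 75-base stretches in the annotated transcripts of Saa1, 18.5% also occurred in Saa2, and 13.8% of those of Orm1 occurred in Orm2. The share was 0.143% for Orm3 and 1.46% for Serpina3n, and no stretch of Lcn2, Hp or Itih4 occurred in another gene. Values of Saa1 against Saa2 and of Orm1 against Orm2 are therefore uncertain where reads were divided between them.

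RefSeq promoter windows of GRCm38.p6, from 250 bases before to 50 bases after the start of transcription, were matched for 8 of the 10 members, all but Orm1 and Hp. They were searched on both strands for the letters TTGCNNAA of a C/EBP element, TTCNNNGAA of a STAT3 element, and for the NF-kB consensus. The C/EBP letters occurred once in 6 of the 8 windows, against 10.8% of all 32851 windows of that length. Saa1 and Saa2, and likewise Orm2 and Orm3, are related genes, so their windows are not independent. Orm1 and Hp had no window, and whether these letters have a part in the difference between the genotypes was not tested. The matches are shown as a description only. They are written in the direction of transcription, with the matched letters in capitals.
Lcn2, chr2:32387940-32387963, minus strand: ccttcctgTTGCTCAAccttgcac
Saa1, chr7:46743147-46743170, minus strand: tgctcccaTTGCACAAtgagggag
Saa2, chr7:46751642-46751665, plus strand: tgctcccaTTGCACAAtgagggaa
Saa3, chr7:46715760-46715783, minus strand: aagtgggaTTATGCAAgatcaaac
Orm2, chr4:63362321-63362344, plus strand: agaacattTTGCGCAAgacatttc
Orm3, chr4:63356029-63356052, plus strand: ggaacattTTGCACAAgacattta

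The match began 216 bases before the start in Lcn2, 182 in Saa1, 183 in Saa2, 99 in Saa3, 120 in Orm2 and 121 in Orm3. In Saa3 the letters stand on the opposite strand, and the annotated spans of Saa1, Saa3 and Orm3 reach upstream of the start used for their windows. The STAT3 letters occurred in 1 of the 8 windows, that of Itih4, against 8.30% of all windows.
Itih4, chr14:30886417-30886441, plus strand: acctgcatTTCCGAGAActtgcacc

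The NF-kB consensus was not found in these 8 windows and was present in 8.46% of all windows. Serpina3n held none of the 3. A match describes the letters of the window and does not show that a factor binds there.

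As a check of the labels, Gpr180 had 6.79 ± 1.99 FPKM (SD, n = 9) in WT and 1.60 ± 0.371 FPKM (n = 9) in Gpr180KO mice, and the lowest WT value (4.46) was above the highest Gpr180KO value (1.99). FPKM summed to between 554796 and 718746 per library, the highest being KOhfd51 (next 629067). Read totals were not in the tables. From the most common ratio of FPKM between lowly expressed genes, the relative depth was 60.9 to 100% of the deepest library in WT and 44.3 to 93.6% in Gpr180KO mice. Sample titles had 2 styles, here called style 1 (such as W317HFD; 4 WT and 4 Gpr180KO) and style 2 (such as WThfd131; 5 and 5). What the styles stand for is not given in the labels, and both hold both genotypes. Of the 10835 genes tested, 464 were lower (4.28%) and 49 higher (0.452%) in Gpr180KO mice at an adjusted p under 0.05 (limma, Benjamini-Hochberg over all genes). The median gene had a log2 difference of -0.13, which became 0.02 after median-of-ratios scaling, when 147 genes were lower and 146 higher.

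Levels of the members spanned a wide range. In WT livers the order of mean FPKM was Hp, Orm1, Itih4, Saa1, Serpina3n, Saa2, Orm2, Lcn2, Saa3 and Orm3. Hp had 2277 ± 399 FPKM (SD, n = 9), a mean above that of 99.7% of the genes tested, and its lowest mouse (1657) was above the highest for Orm1 (1104). The lowest WT value of Orm1 (608) was in turn above the highest of Itih4 (507). From Itih4 down, each gene overlapped with the next in the order. Orm3, at 6.51 ± 5.41 FPKM, was above 44.4% of the genes tested. The spread between WT mice also differed by gene, with a coefficient of variation from 10.8% for Serpina3n and 13.0% for Itih4 to 61.0% for Lcn2 and 83.1% for Orm3.

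**Figure D1:**
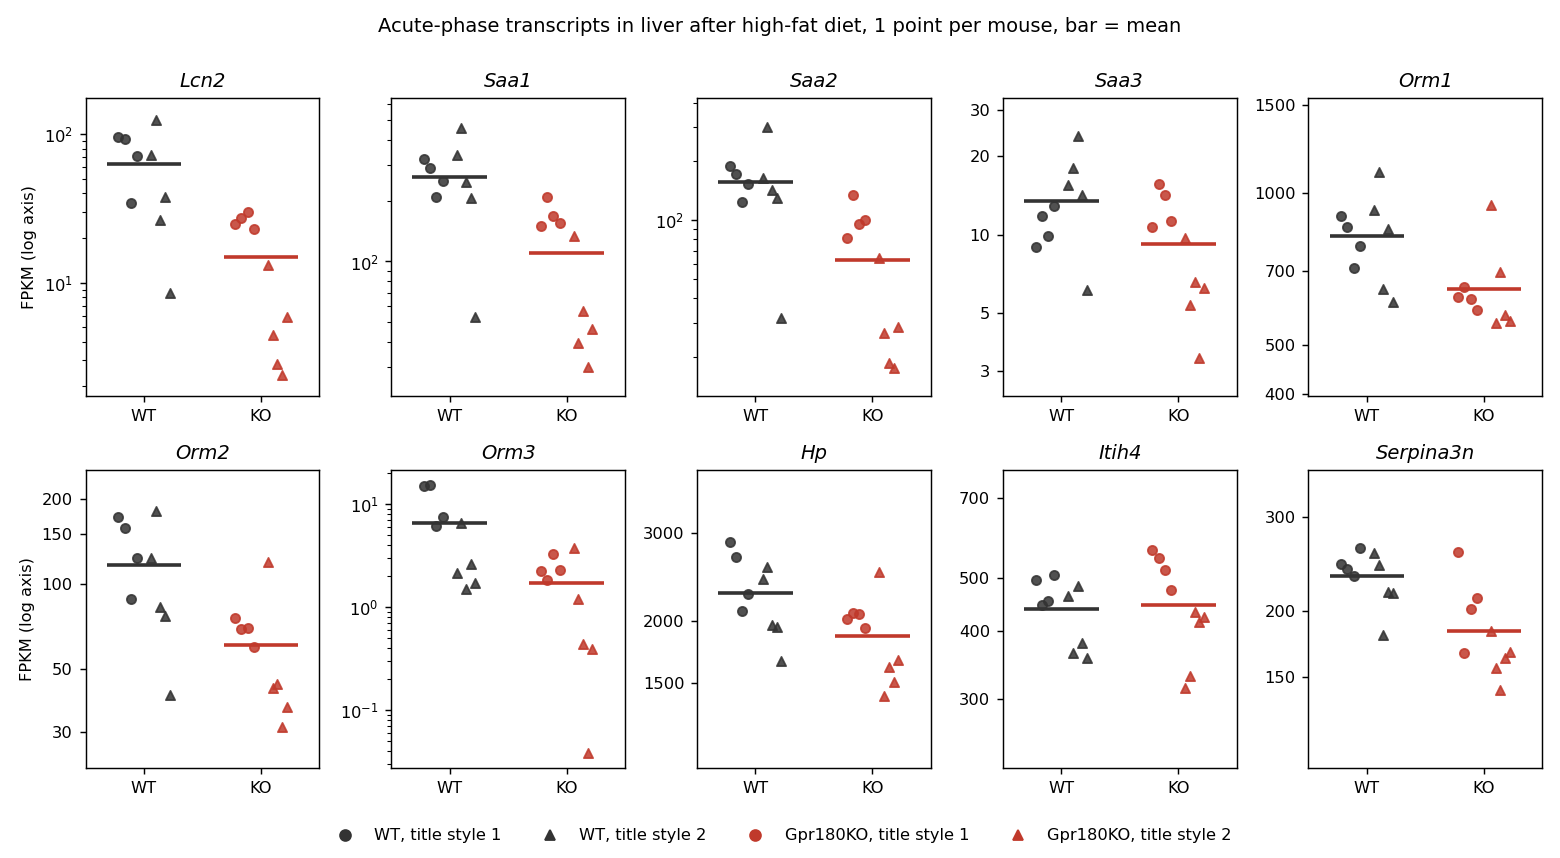
FPKM of the 10 members (log y axes, each panel with its own range) in WT and Gpr180KO (KO) livers, 1 point per mouse, circles for title style 1 and triangles for title style 2, with bars at the mean of 9 mice. Lcn2 averaged 63.0 FPKM in WT and 14.8 in Gpr180KO mice, Itih4 439 and 447, and WThfd157 is the low WT triangle in the panels of Lcn2, Saa1, Saa2 and Orm2.

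Lcn2 was lower in Gpr180KO mice. Its lowest, median and highest values were 8.57 (WThfd157), 71.0 and 125 FPKM (WThfd133) in the 9 WT mice. In the 9 Gpr180KO mice they were 2.40 (KOhfd54), 13.3 and 29.8 FPKM (KO321HFD). All 9 Gpr180KO mice were below the WT median and 7 of the 9 WT mice were above every Gpr180KO mouse, while WThfd157 and WThfd134 (26.6 FPKM) lay within the Gpr180KO range. The means were 63.0 ± 38.4 and 14.8 ± 11.4 FPKM (SD), and the log2 difference was -2.27 with a standard error of 0.57 (limma, adjusted p = 0.0309), which is 4.83-fold lower. Only 0.102% of the genes tested had a lower log2 difference. An exact two-sided permutation test of Lcn2 alone gave an unadjusted p of 0.00309.

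The call for Lcn2 depended on single libraries. Leaving out 1 library moved its log2 difference no farther than -2.59 or -2.02, but the adjusted p of limma was above 0.05 without W317HFD (0.0691), W318HFD (0.0670), W320HFD (0.0578), WThfd133 (0.0729), KOhfd52 (0.0603), KOhfd53 (0.0622) or KOhfd54 (0.0582). Within title style 1 the WT mice had 34.6 to 96.5 FPKM and the Gpr180KO mice 22.9 to 29.8 FPKM, with no overlap and a log2 difference of -1.39 (exact permutation p = 0.0286, the smallest that 4 against 4 mice allow). Within title style 2 the ranges were 8.57 to 125 and 2.40 to 13.3 FPKM and overlapped through WThfd157, with a log2 difference of -2.98 (exact permutation p = 0.0159, smallest possible 0.00794). The 4 Gpr180KO mice of style 1 were all above the 5 of style 2. The interaction of genotype with title style had an adjusted p of 0.677 for Lcn2 (limma).

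Lcn2 was the only member called at an adjusted p under 0.05 among all genes, 1 of 10, against 4.28% of all genes called lower. Of the 10 members, 9 had a lower mean in Gpr180KO mice, beside 76.9% of all genes, and the same 9 had an unadjusted p under 0.05 in limma, beside 19.6% of all genes lower at that level. The median log2 difference of the 10 members was -0.75, against -0.13 over all genes. After median-of-ratios scaling Lcn2 (-2.12, adjusted p = 0.0428) was again the only member called lower, when 1.36% of all genes were. With title style as a term in the fit, 6 members were called lower (Lcn2, Saa1, Saa2, Orm2, Orm3 and Serpina3n), when 9.52% of all genes were, and with both changes 4 were (Lcn2, Saa1, Saa2 and Orm3), when 3.06% of all genes were.

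**Figure D2:**
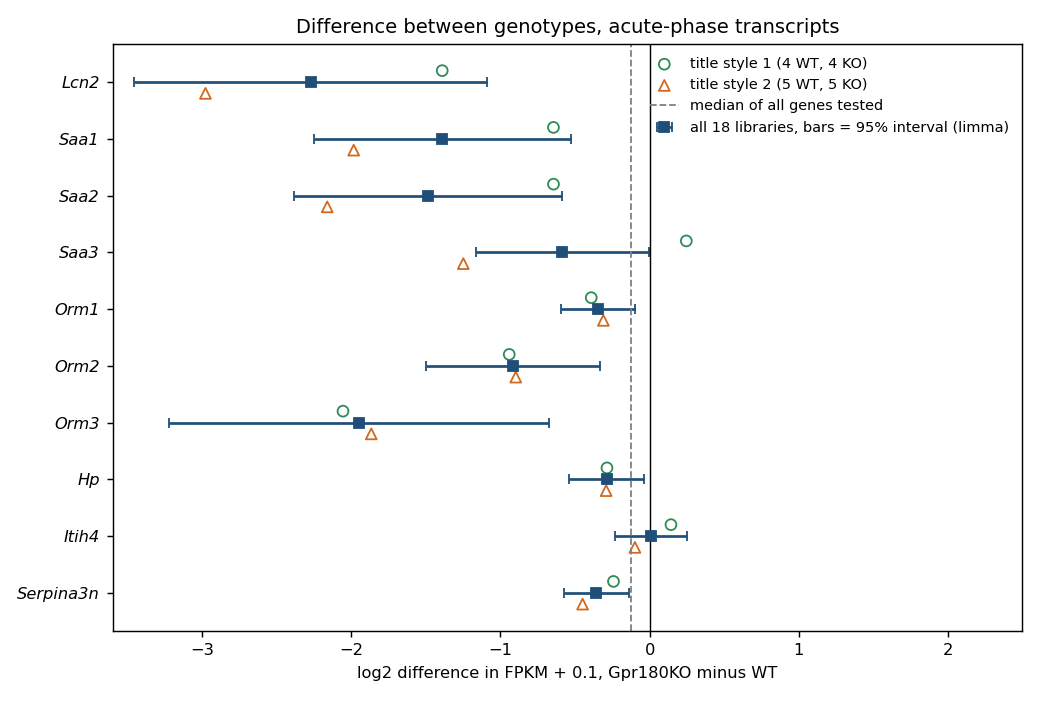
Log2 difference of FPKM + 0.1, Gpr180KO minus WT (x axis), for each member (y axis): squares with 95% intervals from limma for all 18 libraries, circles for title style 1 and triangles for title style 2. Lcn2 (-2.27) and Orm3 (-1.95) lie farthest below the median of all genes (dashed line, -0.13), Itih4 (0.01) lies on 0, and the styles are farthest apart for Lcn2, Saa1, Saa2 and Saa3.

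Among the serum amyloid A genes, the acute-phase apolipoproteins Saa1 and Saa2 had the next lowest means relative to WT after Lcn2 and Orm3. Saa1 had 53.1, 251 and 459 FPKM as lowest, median and highest value in WT mice and 30.1, 134 and 208 FPKM in Gpr180KO mice. All 9 Gpr180KO mice were below the WT median, and the groups overlapped. Its log2 difference was -1.39 with a standard error of 0.41 and did not pass the threshold (limma, adjusted p = 0.0566). Saa2 had 31.8, 153 and 301 FPKM in WT and 17.6, 64.2 and 135 FPKM in Gpr180KO mice, with a log2 difference of -1.49 ± 0.43 (SE) and an adjusted p of 0.0510 in limma. For both genes WThfd157 was the lowest WT mouse and lay below the Gpr180KO mean. Without WThfd157 7 members were called lower, when 7.79% of all genes were (limma).

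Saa3, which is made mainly outside hepatocytes, by macrophages and fat cells, had 13.4 ± 5.24 FPKM in WT and 9.21 ± 4.12 FPKM in Gpr180KO mice (SD, n = 9). Its log2 difference of -0.58 ± 0.28 (SE) did not pass the threshold (limma, adjusted p = 0.220). The title styles differed in sign for this gene. In style 1 the mean was 10.9 FPKM in WT and 12.9 FPKM in Gpr180KO mice (log2 difference 0.25), and in style 2 it was 15.5 and 6.24 FPKM (log2 difference -1.25). The interaction of genotype with title style had a p of 0.00324 for Saa3 before and 0.581 after adjustment over all genes, and 0 members were called for it, when 0% of all genes were (limma). At an unadjusted p under 0.05, 833 genes and 2 members, Saa2 and Saa3, passed.

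The 3 orosomucoid genes, neighbours that encode plasma alpha-1-acid glycoproteins, differed in level and in the size of their difference. Orm3 had 1.49, 6.19 and 15.5 FPKM as lowest, median and highest value in WT and 0.0380, 1.82 and 3.78 FPKM in Gpr180KO mice, all 9 of which were below the WT median. Its log2 difference of -1.95 ± 0.61 (SE) had an adjusted p of 0.0679 in limma. Orm3 also varied with title style, with means of 11.0 FPKM in style 1 and 2.90 FPKM in style 2 among WT mice, and its highest Gpr180KO value was that of KOhfd51.

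Orm2 had 40.5, 124 and 181 FPKM in WT and 31.2, 59.9 and 119 FPKM in Gpr180KO mice, with a log2 difference of -0.92 ± 0.28 (SE; limma, adjusted p = 0.0610). All Gpr180KO mice but KOhfd51 (119 FPKM) were at or below 75.8 FPKM. Orm1, the most abundant of the 3, had 822 ± 154 and 645 ± 122 FPKM (SD) and a log2 difference of -0.35 ± 0.12 (SE; limma, adjusted p = 0.0921). KOhfd51, the library with the highest FPKM sum, stood apart with 947 FPKM of Orm1, while the other 8 Gpr180KO mice had 553 to 697 FPKM. Without it the adjusted p of limma fell to 0.0255 for Orm1 and 5 members were called lower, when 6.36% of all genes were.

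Hp and Serpina3n were lower in mean in Gpr180KO mice, with log2 differences near that of Orm1, and Itih4 was nearly equal between the genotypes. Hp had 1657, 2269 and 2877 FPKM as lowest, median and highest value in WT and 1414, 1931 and 2507 FPKM in Gpr180KO mice, with a log2 difference of -0.29 ± 0.12 (SE; limma, adjusted p = 0.170). Serpina3n had 233 ± 25.2 and 183 ± 35.5 FPKM (SD) and a log2 difference of -0.36 ± 0.10 (SE; limma, adjusted p = 0.0510). Most Gpr180KO mice were below the WT range for Serpina3n, 5 of 9 below its lowest mouse, but KO319HFD (258 FPKM) was above all but 1 WT mouse. Itih4 had 358, 454 and 507 FPKM in WT and 314, 433 and 564 FPKM in Gpr180KO mice. Its log2 difference was 0.01, with a 95% interval from -0.23 to 0.25 and an adjusted p of 0.970 (limma), and its sign turned with TPM scaling (-0.029).

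Within title style 1 alone 5 members were called lower (Lcn2, Saa1, Orm1, Orm2 and Orm3), when 4.50% of all genes were (limma). Within title style 2 alone 0 members and 0% of all genes were called, while 6 members and 2019 genes had an unadjusted p under 0.05. The median log2 difference of the members was -0.52 in style 1 and -1.07 in style 2, against -0.07 and -0.17 over all genes. In style 1 and style 2 the log2 differences were -0.94 and -0.90 for Orm2, -0.39 and -0.31 for Orm1 and -0.29 in both for Hp, and they were -0.64 and -1.98 for Saa1.

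Whether Lcn2 differed by the same factor as the others was asked of the ratio of each member to Lcn2 in the same library, which hardly depends on scaling between libraries. In limma over 10834 ratios, the ratio was called higher in Gpr180KO mice for 6 of the 9 other members (Saa3, Orm1, Orm2, Hp, Itih4 and Serpina3n). It was called higher for 98.6% of all genes, since the fall of Lcn2 enters every ratio. The call for Orm2 (adjusted p = 0.0365) was lost without any 1 of 11 libraries and in title style 1 alone, where the change was 0.45 (adjusted p = 0.255). Saa1, Saa2 and Orm3 were the 3 members not called, though their ratios were also higher in mean. The change of the ratio on the log2 scale was 0.88 for Saa1 (95% interval -0.38 to 2.15), 0.79 for Saa2 (-0.48 to 2.05) and 0.32 for Orm3 (-0.93 to 1.58), against a median of 2.15 over all genes. These intervals do not show that the genes moved by an equal factor.

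The standard error of the change was 0.255 for Saa1 from its own ratios, and 0.645 in the fit across all genes. In that fit the variance of each ratio is drawn towards that of all ratios, every 1 of which contains Lcn2. There were 2.23 ± 0.520 log2 units of Saa1 over Lcn2 in WT and 3.12 ± 0.561 in Gpr180KO mice (SD, n = 9). In exact two-sided permutation tests of single ratios, added after the values were seen, the unadjusted p was 0.00304 for Saa1, 0.00329 for Saa2 and 0.461 for Orm3, and between 0.00165 and 0.00584 for the other 6 members. Adjusted over these members alone, 8 passed, with an exact permutation p of 0.00592 for Saa1 and for Saa2. The ratio of every Gpr180KO mouse was above the WT mean for all members but Orm3, for which 5 of 9 were. These tests were not run on the other genes, so no share of all genes stands beside them, and most genes had a larger change of the ratio than Saa1, Saa2 and Orm3.

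The members also differed in their spread within a genotype. From the lowest to the highest mouse, Lcn2 spanned 14.6-fold in WT and 12.4-fold in Gpr180KO mice. Saa2 spanned 9.47-fold and 7.67-fold, Hp 1.74-fold and 1.77-fold, and Itih4 1.42-fold and 1.80-fold. Serpina3n, with 1.46-fold and 1.82-fold, also had a narrow range.

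Mice with high Lcn2 also had high levels of most other members of the same genotype. After subtraction of the mean of each genotype within each title style (n = 18), Pearson's r with Lcn2 was 0.93 for Saa2, 0.92 for Orm2, 0.90 for Saa1, 0.87 for Hp, 0.83 for Orm1 and 0.70 for Orm3. Adjusted over the 45 pairs of members, the permutation p of these 6 was between 0.00075 and 0.0079 (100000 permutations within genotype and title style, two-sided). Spearman's rho was 0.82, 0.84, 0.76, 0.88, 0.74 and 0.68 in the same order, with adjusted permutation p between 0.000844 and 0.0314. Saa3 (r = 0.67, rho = 0.45, adjusted permutation p = 0.0566 and 0.161) and Serpina3n (r = 0.44, rho = 0.51, adjusted permutation p = 0.133 and 0.0772) did not pass. Itih4 had r = -0.14 and rho = -0.10 (adjusted permutation p = 0.734 and 0.836).

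**Figure D3:**
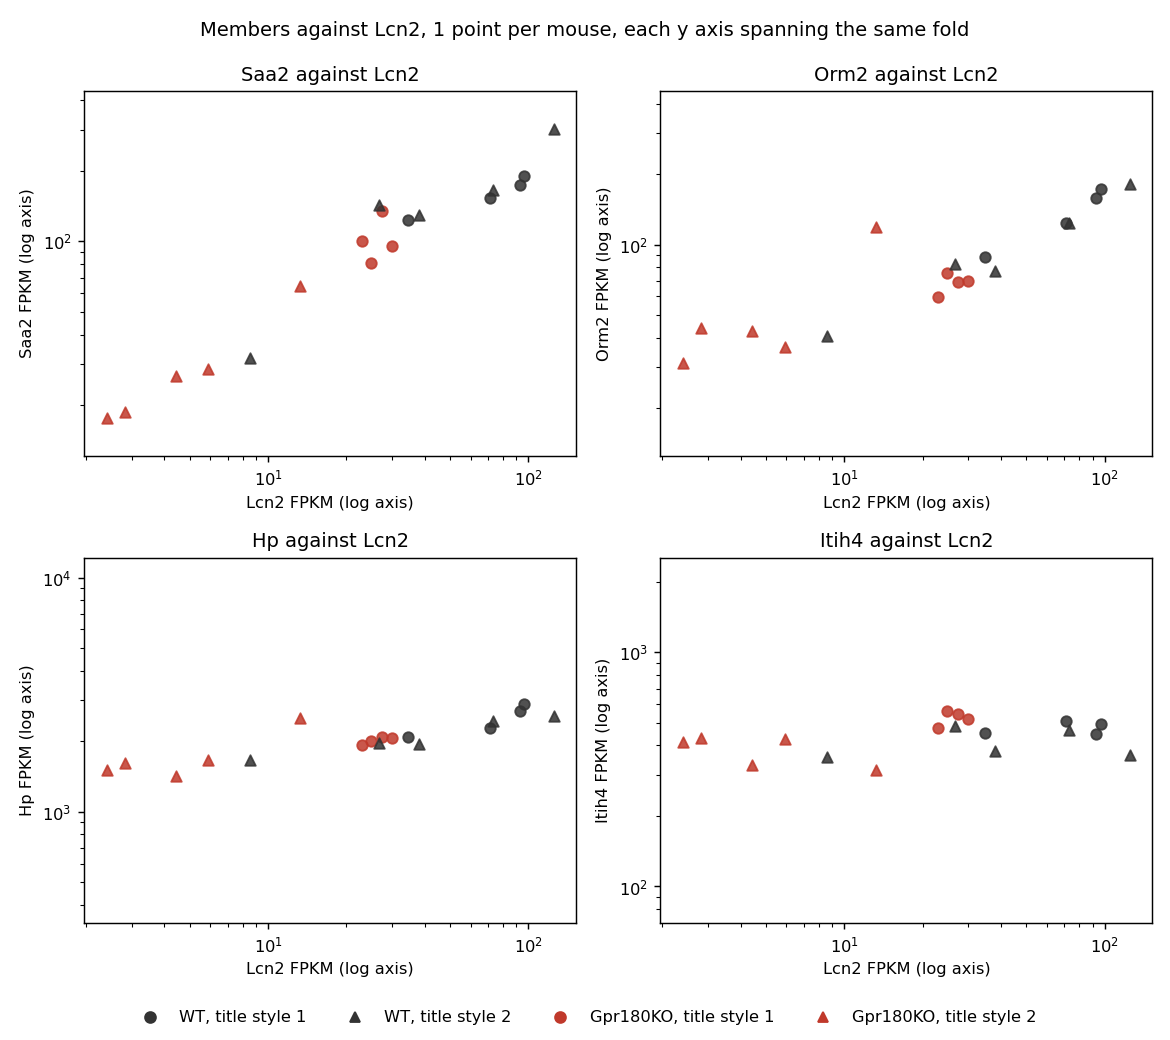
FPKM of Saa2, Orm2, Hp and Itih4 (y axes, log scale, each spanning the same fold) against FPKM of Lcn2 (x axes, log scale), 1 point per mouse. Saa2 and Orm2 rise with Lcn2 along the whole range from 2.40 to 125 FPKM, Hp rises with a shallow slope, and KOhfd51 is the highest Gpr180KO mouse for Orm2 and Hp. Itih4 stays between 314 and 564 FPKM. Its r with Lcn2 was 0.48 centred on genotype only and -0.14 centred on genotype within title style.

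These relations held without the 2 libraries farthest from the median of Lcn2, KOhfd53 and KOhfd54, with r of 0.92 for Saa2, 0.93 for Orm2, 0.93 for Saa1, 0.87 for Hp, 0.89 for Orm1 and 0.66 for Orm3. In the 9 WT mice r was 0.93 for Saa2, 0.98 for Orm2, 0.93 for Saa1 and 0.93 for Hp. In the 9 Gpr180KO mice it was 0.93, 0.85, 0.83 and 0.85, and 0 of 45 pairs passed after adjustment (exact permutation, 10 pairs at an unadjusted p under 0.05), with a lowest unadjusted p of 0.0066. Within title style 1 the r of Lcn2 was 0.66 with Saa2, 0.94 with Orm2 and 0.90 with Hp, and again 0 of 45 pairs passed (exact permutation, 14 unadjusted). The 576 permutations of style 1 allow no unadjusted p below 0.00174, so a single pair could not have passed after adjustment over the 45 pairs. Within style 2 the r of Lcn2 with Saa2, Orm2 and Hp was 0.96, 0.92 and 0.87, and 20 pairs passed.

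**Figure D4:**
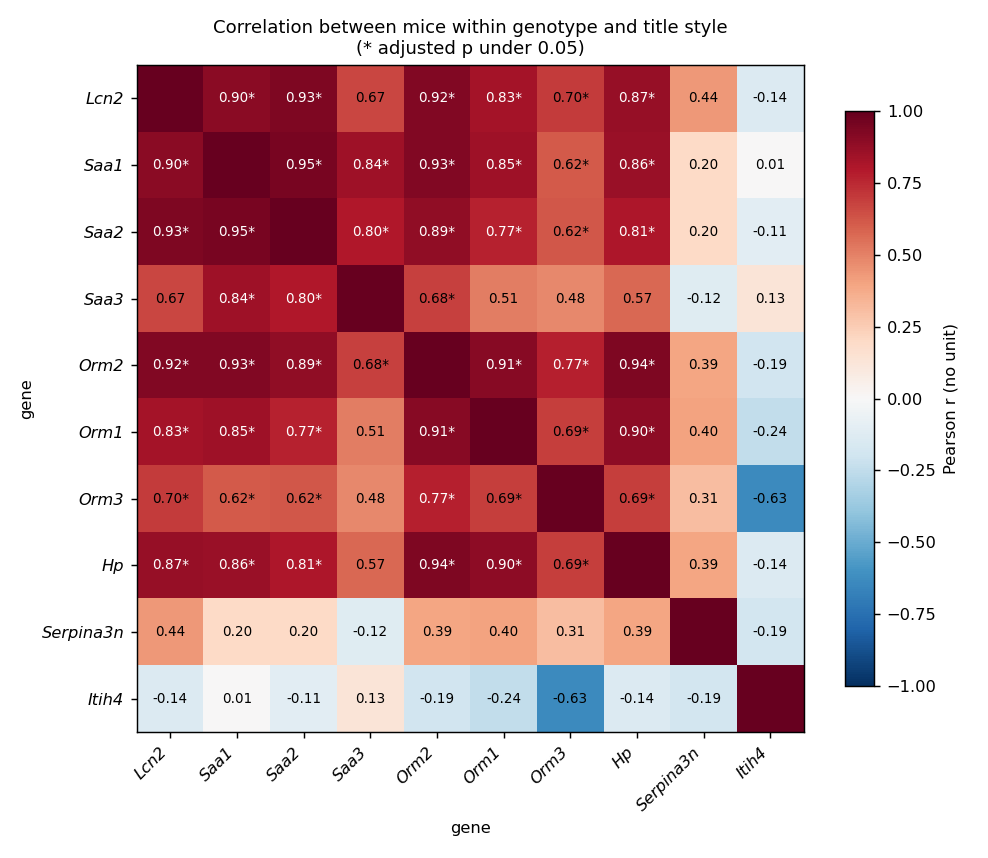
Pearson's r (colour, no unit) between members over 18 mice after subtraction of the mean of each genotype within each title style, with asterisks where the adjusted permutation p is under 0.05. Lcn2, Saa1, Saa2, Orm1, Orm2, Orm3 and Hp form a block of positive values from 0.62 to 0.95. The row of Saa3 holds asterisks with Saa1, Saa2 and Orm2, while the rows of Serpina3n and Itih4 hold no asterisk.

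Over all 45 pairs, 24 had an adjusted permutation p under 0.05 by Pearson's r and 19 by Spearman's rho, and 37 had a positive r (median 0.67). The highest r was that of Saa1 with Saa2 (0.95), which share part of their sequence. Saa3 passed by Pearson's r with Saa1 (0.84, adjusted permutation p = 0.0084), Saa2 (0.80, 0.0188) and Orm2 (0.68, 0.0486). No pair with Serpina3n or Itih4 passed. The lowest r was that of Orm3 with Itih4 (-0.63, adjusted permutation p = 0.0506).

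As a description of all 10834 other genes, the 5 most like Lcn2 by the same centred r over 18 mice were Fez2 (0.94), Saa2 (0.93), Ly6d (0.93), Orm2 (0.92) and Mmp12 (0.92), so that 2 of the 5 were members. The median r with Lcn2 over all genes was 0.11 and the 95th percentile 0.69. Saa1 ranked 18, Hp 42 and Orm1 83 among all genes by r with Lcn2. The 5 most like Saa1 were Saa2 (0.95), Lrmp (0.94), Tm4sf4 (0.94), Orm2 (0.93) and Arpp19 (0.93). These points share libraries and title styles, and no p is given.

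Genes upstream of the acute-phase response were described from fixed lists, beside the 4.28% of all genes called lower. Of 10 inducing cytokines, only Il1a and Il1b reached a mean of 1 FPKM, and 0 of these 2 passed the test (limma; 1 at an unadjusted p under 0.05). Il6, named after its values were seen, had 0.0771 FPKM in WT and 0.0573 FPKM in Gpr180KO mice and was not tested. Of 9 cytokine receptors 1 was lower in Gpr180KO mice, Tnfrsf1a, a tumour necrosis factor receptor, with 40.1 against 30.8 FPKM (log2 difference -0.40, limma adjusted p = 0.0337), and the call was lost after median-of-ratios scaling (adjusted p = 0.138). Il6ra (5.50 and 5.53 FPKM) and Il6st (35.1 and 30.3 FPKM), the chains of the interleukin-6 receptor, did not pass. Il1rap, a chain of the interleukin-1 receptor, had 60.2 FPKM in WT and 77.5 FPKM in Gpr180KO mice, and Lifr, the receptor for leukaemia inhibitory factor, 25.97 and 49.6 FPKM. Both missed the threshold (limma adjusted p = 0.0758 and 0.166) but passed as higher with title style as a block (0.0117 and 0.0342), when 1.13% of all genes were higher.

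Of 17 signal transducers and transcription factors, 0 passed the test, with a median log2 difference of -0.17 against -0.13 for all genes (limma; 2 at an unadjusted p under 0.05). All 17 were lower in mean, beside 76.9% of all genes. After median-of-ratios scaling the signs were mixed, with log2 differences of 0.10 for Chuk, 0.07 for Cebpa, -0.06 for Stat3 and -0.31 for Cebpb. Stat3 had 25.2 and 21.8 FPKM, the kinase gene Jak1 26.6 and 24.0 FPKM and the C/EBP gene Cebpa 92.3 and 87.6 FPKM in WT and Gpr180KO mice. Of 6 feedback inhibitors tested, 5 were lower in mean and 1 was called lower. This was Tnfaip3, which restrains NF-kB, with 1.74 against 0.861 FPKM (log2 difference -0.90, limma adjusted p = 0.0302). Socs3 went the other way, with 2.41 FPKM in WT and 3.57 FPKM in Gpr180KO mice, and did not pass (log2 difference 0.55, limma adjusted p = 0.259). Zfp36 (38.9 and 33.0 FPKM) and Nfkbia (17.7 and 15.5 FPKM), the most abundant of the list, did not pass. Il1rn, which encodes the interleukin-1 receptor antagonist, had 4.52 and 2.77 FPKM and did not pass (adjusted p = 0.0510), except with title style as a block (0.0212).

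Of 20 other positive acute-phase genes tested, 2 were lower, beside 4.28% of all genes, and 5 with title style as a block, beside 9.52%. The 2 were Apcs, the serum amyloid P component, with 87.3 against 62.6 FPKM (log2 difference -0.48, limma adjusted p = 0.0159), and Cd14, a receptor for bacterial endotoxin, with 3.95 against 1.92 FPKM (-0.98, adjusted p = 0.0373). Both calls were lost after median-of-ratios scaling (adjusted p = 0.1004 and 0.0685). The median log2 difference of the 20 was -0.10, and 12 of them were lower in mean. The fibrinogen genes Fgb and Fgg, Hpx, which encodes haemopexin, and Hamp, which encodes the iron hormone hepcidin, did not pass. Their means in WT and Gpr180KO mice were 2721 and 2298 FPKM for Hpx, 2145 and 2385 FPKM for Fgb, and 1409 and 2272 FPKM for Hamp.

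Of 6 negative acute-phase genes tested, whose transcripts fall in the acute phase, 0 passed (limma; 1 at an unadjusted p under 0.05), and the median log2 difference was 0.16. Ttr, the carrier of thyroid hormone, had 4518 and 4657 FPKM. In the families of single members, 0 of 4 tested genes of the Serpina3 cluster and 0 of 5 of the inter-alpha-trypsin inhibitor family passed (limma; 1 in each at an unadjusted p under 0.05). Serpina3k, the most abundant gene of the cluster, had 3431 FPKM in WT and 5164 FPKM in Gpr180KO mice (log2 difference 0.62, limma adjusted p = 0.196), and was higher with title style as a block (adjusted p = 0.0225). For the partners of haptoglobin and of Lcn2, 0 of 3 and 0 of 1 passed (limma, none at an unadjusted p under 0.05), and Cd163, the receptor for haptoglobin bound to haemoglobin, had 3.08 and 3.56 FPKM.

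The summed markers of neutrophils, stellate cells and bile duct cells varied with Lcn2 between mice, and those of macrophages and adipocytes had a lower r. In bulk liver, fewer cells of a type and less RNA per cell cannot be told apart. The summed level of 13 neutrophil markers was 4.45 to 42.1 FPKM in WT and 4.54 to 14.0 FPKM in Gpr180KO mice. Most of it was S100a8, S100a9 and Retnlg, and the sum correlated with Lcn2 between mice (r = 0.86, centred, n = 18). Of the 3 neutrophil markers tested, 0 passed (limma, 3 at an unadjusted p under 0.05). They were S100a8 (9.31 and 3.27 FPKM in WT and Gpr180KO mice), S100a9 (6.89 and 3.01 FPKM), which passed with title style as a block (adjusted p = 0.0369), and Retnlg (2.71 and 0.772 FPKM). The granule genes Mpo (0.0181 and 0.0142 FPKM), Ngp and Ltf were near 0 and Ctsg was listed at 0 in all libraries. Among other markers not tested, Elane (0.224 and 0.320 FPKM) and Prtn3 (0.315 and 0.392 FPKM) had higher means in Gpr180KO mice. Csf3r (1.26 and 0.596 FPKM) had a lower mean. Of 10 macrophage markers tested 3 were called lower, Cd68, Gpnmb and Trem2, beside 4.28% of all genes. Gpnmb lost its call after median-of-ratios scaling (limma adjusted p = 0.0560). In mean 8 of the 10 were lower, while Clec4f (43.9 and 48.1 FPKM in WT and Gpr180KO mice) and Timd4 (4.18 and 4.28 FPKM) had higher mean FPKM in Gpr180KO mice. The summed level of 11 macrophage markers was 144 to 317.7 FPKM in WT and 159.8 to 230.5 FPKM in Gpr180KO mice (r with Lcn2 0.39).

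Of 8 markers of stellate cells and fibroblasts 5 were called lower (Col1a1, Col1a2, Col3a1, Pdgfrb and Dcn), beside 4.28% of all genes. The other 3, Lrat (5.48 and 4.02 FPKM in WT and Gpr180KO mice), Des (1.91 and 1.85 FPKM) and Reln (8.91 and 6.33 FPKM), were not called. The summed level of the 8 was 143 to 287 FPKM in WT and 79.6 to 145 FPKM in Gpr180KO mice (r with Lcn2 0.76). Most of this sum was Dcn, with means of 144 FPKM in WT and 89.7 FPKM in Gpr180KO mice. Both tested markers of bile duct cells, Spp1 and Sox9, were called lower, beside 4.28% of all genes, Sox9 no longer after median-of-ratios scaling (limma adjusted p = 0.137). The sum of 6 bile duct markers was 40.9 to 226 and 17.4 to 51.0 FPKM (r with Lcn2 0.90). Most of it was Spp1, while Krt7, Krt19, Epcam and Cftr were each below 1 FPKM in mean. The sum of 5 adipocyte markers was 1.60 to 46.7 and 4.44 to 279 FPKM (r 0.13), nearly all Cfd, with Plin1 listed at 0 in all libraries. None of the 10 hepatocyte markers passed (limma, 0 at an unadjusted p under 0.05), and their sum was 18044 to 22120 and 20001 to 32398 FPKM (r with Lcn2 0.23). Whether these cell types or the relative depth had a part in the difference of Lcn2 was not tested.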

How the data were processed

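The authors extracted liver RNA, made poly(A) libraries and aligned single 75-base reads to mm10 (GRCm38) with the TopHat Alignment application. The deposited values are FPKM per gene, with FPKM confidence bounds and a status. They are described as output of this processing, whose version and gene annotation are not given in the sources used here. Of 180 member values, 42 lay inside their own bounds, so the bounds were not used.

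FPKM of 252 symbols with several entries were summed, and 24 genes with a failed estimate were left out. Genes with a mean of at least 1 FPKM were compared with limma 3.58.1 (R 4.3.3; eBayes with trend) on log2(FPKM + 0.1), with a threshold of 0.05 after Benjamini-Hochberg adjustment over all 10835 genes. Fold changes on this scale understate the change of low genes. The same fit was run on ratios to Lcn2 and with an interaction term. Correlations used Python 3.11.15 with numpy 2.4.6 and scipy 1.17.1. Groups came from the labels. All members were named, and from pathway lists the genes called and up to 4 others of highest mean. Il6 and Cebpb were named besides. Marker genes were named where called. Others, tested or not, were named as examples, and not every tested marker is named. Members, lists and tests were chosen with earlier results of these data known. The alternatives were pseudocounts, FPKM minimums, scalings, title style as a block or alone, eBayes settings, weights per library and each library left out. Median-of-ratios scaling with title style as a block, and exact tests of single ratios, were added after seeing the data. The correlation step was tested on simulated data with a planted correlation. Each library is 1 mouse, and p-values measure the spread between these mice.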

Additional observations from a re-analysis of the deposited data

Results flagged for a closer look

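In the 20 sets of 9 libraries (10 members in each genotype), 3 held a library that stood farther from the nearest other than Dixon's test allows on the log2 scale. Chance gives about 1 in 20. WThfd157 was lowest of the WT mice for Saa1 (53.1 FPKM, the others 206 to 459) and for Saa2 (31.8 FPKM, the others 124 to 301), which share sequence and so are not separate observations. KOhfd51 was highest of the Gpr180KO mice for Orm1 (947 FPKM, the others 553 to 697). Without WThfd157 7 members were called lower in Gpr180KO mice, beside 7.79% of all genes, and without KOhfd51 5 members, beside 6.36% (limma, adjusted p under 0.05).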

How the results depend on the processing

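The count of genes called (513) was 837 at a mean of at least 0.1 FPKM, 238 at 5 FPKM, 293 after median-of-ratios scaling (147 lower, 146 higher) and 322 after 75th percentile scaling (214 lower, 108 higher), 1153 with title style as a block, 0 in title style 2 alone (2019 at an unadjusted p under 0.05 in limma), 1331 with weights per library, and 132 to 922 with 1 library left out. The count of members called (1, when 464 of all genes were lower) was 3 with a pseudocount of 1 (536 genes lower). It was also 3 at a mean of 0.1 FPKM (776 lower of a larger set of genes). With TPM (536 lower), the block (1031 lower) or weights (1161 lower) it was 6. In style 1 it was 5 (488 lower) and in style 2 it was 0 (0 lower). With median-of-ratios scaling and the block it was 4 (332 lower). With 1 library left out it was 0 to 7. It was 0 without any 1 of the 7 libraries named for Lcn2 (116 to 216 lower) and 7 without WThfd157 (844 lower). Lcn2 kept its direction in all alternatives, between -2.98 (style 2 alone, adjusted p = 0.0956) and -1.39, with an adjusted p between 0.00601 and 0.0956 and it was -2.59 to -2.02 with 1 library left out, with an adjusted p of 0.00633 to 0.0729. The interaction called 0 or 1 gene with 1 library left out, 1 without WThfd157 or KO321HFD. Of the pairs of members (24), 15 passed in WT alone, 0 in Gpr180KO alone, 0 in title style 1 alone, and 17 to 28 with 1 library left out.

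The difference of Itih4 turned to -0.029 with TPM and -0.10 in style 2, and ranged from -0.037 to 0.069 with 1 library left out. That of Saa3 was 0.25 in style 1. The ratio of Orm3 to Lcn2 turned to -0.67 in style 1 and -0.25 with weights. The correlation of Itih4 with Lcn2 was 0.48 centred on genotype only, 0.17 in WT, 0.27 in style 1, 0.050 without the 2 mice farthest from the median of Lcn2, and -0.48 to 0.088 with 1 library left out. The ratio of Orm2 to Lcn2 lost its call without any 1 of 11 libraries (adjusted p up to 0.0696). The causes were not tested. Of all 411 alternatives that left out no single library, 338 kept the direction and side of the threshold or, for counts, stayed within 1.5 times, as did 518 of the 594 that left out 1. No paired analysis was possible because the replicate numbers are in accession order and pair no mice. Read totals were not in the tables, so counting error could not be given.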
